A study of Mus musculus with 9 samples.

Results

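The genes described here are 8 genes that mark tuft cells or carry their signals, namely Pou2f3, Trpm5, Gnat3, Il25, Il17rb, Sh2d6, Dclk1 and Avil. They were chosen by name, and each matched 1 row of a deposited table of 36256 mouse genes. Colon RNA of 9 C57BL/6 mice, 3 in each of 3 groups, was sequenced from libraries made with oligo(dT) beads. The control group is called NC. The MC mice were given DSS (dextran sulfate sodium), which damages the lining of the colon and is used to model colitis, over a modelling period of 9 days. The LRWE group had the same DSS modelling and also Linderae Radix extract, made from roots of Lindera aggregata, at 2.0 g/kg. No group had the extract without DSS, and the age and sex of the mice and the stretch of colon sampled are not given in the sources used here. From its title, the study asks whether the extract relieves ulcerative colitis through JAK/STAT signalling, and the tuft cell genes were measured as part of the whole transcriptome.

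Tuft cells are rare chemosensory cells of the intestinal epithelium. They detect products of parasites and microbes in the gut lumen through a signalling chain shared with taste cells, in which a receptor acts through the G protein subunit encoded by Gnat3 and opens the cation channel encoded by Trpm5. In mice they are the main epithelial source of the cytokine IL-25, which acts on innate lymphoid cells; these release type 2 cytokines, and more tuft and goblet cells then form. The transcription factor encoded by Pou2f3 is required for tuft cells to form. Dclk1, a microtubule-associated kinase, and Avil, which encodes the actin-binding protein advillin, are used as tuft cell markers in the gut, but both are also known from neurons.

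Promoter windows of 250 bases before to 50 bases after the annotated start were taken from RefSeq on GRCm38.p6, where 7 windows matched 6 of the 8 genes. The windows of Avil, Dclk1, Trpm5 and Sh2d6 are shown because these genes carry the patterns described below. POU factors such as Pou2f3 are known to bind the octamer ATGCAAAT (reverse complement ATTTGCAT). Both strands were searched for the octamer and for its first 6 letters, ATGCAA (reverse complement TTGCAT), so that each octamer also counts as a match of the shorter motif. Capitals mark the shorter motif, and every sequence reads 5′ to 3′ on the strand of its gene.

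Avil, chr10:127000459-127000758, plus strand: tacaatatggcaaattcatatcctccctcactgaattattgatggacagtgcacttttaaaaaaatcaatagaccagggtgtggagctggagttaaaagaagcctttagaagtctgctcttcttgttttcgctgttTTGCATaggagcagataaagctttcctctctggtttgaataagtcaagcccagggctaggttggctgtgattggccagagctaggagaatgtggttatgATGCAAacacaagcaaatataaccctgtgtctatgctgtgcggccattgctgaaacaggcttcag
Dclk1, upstream start, chr3:55242114-55242413, plus strand: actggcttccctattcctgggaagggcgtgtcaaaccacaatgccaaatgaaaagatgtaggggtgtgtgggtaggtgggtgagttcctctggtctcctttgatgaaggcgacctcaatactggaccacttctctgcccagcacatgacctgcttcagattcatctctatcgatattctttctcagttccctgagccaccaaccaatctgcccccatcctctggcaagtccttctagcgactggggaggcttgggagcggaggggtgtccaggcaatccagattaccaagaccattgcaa
Dclk1, downstream start, chr3:55461478-55461777, plus strand: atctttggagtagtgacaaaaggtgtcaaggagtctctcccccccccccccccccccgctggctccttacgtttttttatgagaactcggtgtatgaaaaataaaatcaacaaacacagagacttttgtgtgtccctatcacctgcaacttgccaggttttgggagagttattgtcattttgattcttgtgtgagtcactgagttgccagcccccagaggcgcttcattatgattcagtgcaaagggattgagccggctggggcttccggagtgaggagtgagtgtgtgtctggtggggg
Trpm5, chr7:143094593-143094892, minus strand: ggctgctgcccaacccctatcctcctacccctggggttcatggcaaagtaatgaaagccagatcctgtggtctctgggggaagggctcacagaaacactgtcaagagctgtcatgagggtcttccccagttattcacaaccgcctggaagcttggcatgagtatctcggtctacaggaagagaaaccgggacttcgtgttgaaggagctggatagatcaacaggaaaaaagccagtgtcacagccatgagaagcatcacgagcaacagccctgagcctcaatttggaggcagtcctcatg
Sh2d6, chr6:72519987-72520286, minus strand: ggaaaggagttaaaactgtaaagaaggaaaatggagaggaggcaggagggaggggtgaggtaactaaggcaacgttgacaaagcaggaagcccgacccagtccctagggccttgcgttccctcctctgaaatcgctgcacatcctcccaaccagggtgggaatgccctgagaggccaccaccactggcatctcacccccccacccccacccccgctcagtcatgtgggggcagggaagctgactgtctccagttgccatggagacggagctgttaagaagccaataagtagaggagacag

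The Avil window held the shorter motif 2 times, starting 114 and 15 bases before the start site. The Gnat3 window held it 1 time, 82 bases before the start site, and the other 5 windows held no match. Over all 32851 windows of the reference table, 10.7% held the shorter motif and 1.74% the whole octamer, which was in 0 of the 7 windows of these genes. Both Dclk1 windows belong to separate start sites, which the deposited table sums into 1 value per gene.

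The libraries held 59042063 to 65042857 counts, and 21767 genes passed a filter on low counts and were tested, all 8 tuft cell genes among them. Counts are given as CPM, counts scaled to a common library size with TMM factors for RNA composition, to compare libraries. Levels of different genes are compared as FPKM, the authors' fragments scaled to gene length and library size. Changes are log2 fold changes ± SE, with 3 mice per group, from edgeR's quasi-likelihood test. Adjusted p-values use the Benjamini-Hochberg method over the whole tested table, and those under 0.05 count as called. Library LRWE 2 stood apart: its score on the first principal component was 220.1 against -96.0 to 74.6 for the others, it had the fewest genes with a count (21218 against 23238 to 26019), and results that rest on it are also given without it. Genes that differ along the colon also moved with the groups. Slc37a2 had 737 to 1042 CPM in NC against 1.24 to 33.0 CPM in the 6 libraries with DSS, and Osr2 had 0.682 to 1.98 CPM in NC and 2.11 CPM in MC 2 against 37.9 to 244 CPM in the other 5. Of the 8 colon position genes matched, 5 were called in MC against NC (4 higher, 1 lower), against 6.37% of all tested genes. In LRWE against NC 8 were called (4 higher, 4 lower), against 10% of all tested genes. In LRWE against MC none was called, where 0% of all tested genes were called. LRWE did not overlap with MC and was lower for 3 of the 8, against 14.1% of all tested genes. Hoxd13, for example, had a mean of 12.0 CPM in MC and 0.301 CPM in LRWE. Treatment and the stretch of colon sampled cannot be told apart in the comparisons with NC or in LRWE against MC.

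Per length, Avil was the most abundant of the 8 genes in every group, and Il25 the least. In NC the mean FPKM was 1.902 for Avil, 1.32 for Sh2d6, 0.945 for Dclk1, 0.540 for Il17rb, 0.256 for Trpm5, 0.215 for Gnat3, 0.173 for Pou2f3 and 0.0188 for Il25. Neighbours in this order had separate ranges over the 3 libraries except Trpm5 with Gnat3 and Gnat3 with Pou2f3. In MC the order of the upper members was Avil at 7.34 FPKM, Dclk1 at 4.28 and Sh2d6 at 2.21, with Dclk1 and Sh2d6 overlapping. Il17rb followed at 0.560 FPKM with a range below that of Sh2d6, and from Il17rb to Il25 every neighbour overlapped. In LRWE the means were 3.88 FPKM for Avil, 3.19 for Sh2d6 and 1.77 for Dclk1, and the ranges of all neighbours overlapped.

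Between DSS colitis and control colon, 1 of the 8 genes rose and none fell by the test. Avil rose by 1.79 ± 0.40 on the log2 scale, 3.46-fold, and Dclk1 had the same direction at 2.03 ± 0.70 without passing the test. Trpm5, Gnat3, Il17rb and Pou2f3 had fold changes between -0.06 and 0.25. Over all tested genes 6.37% were called in this comparison, 2.84% higher and 3.53% lower. The groups did not overlap, with MC higher, for 2 of the 8 genes, against 19.5% of all tested genes. The median log2 fold change was 0.44 over the 8 genes and -0.01 over all tested genes.

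**Figure D1:**
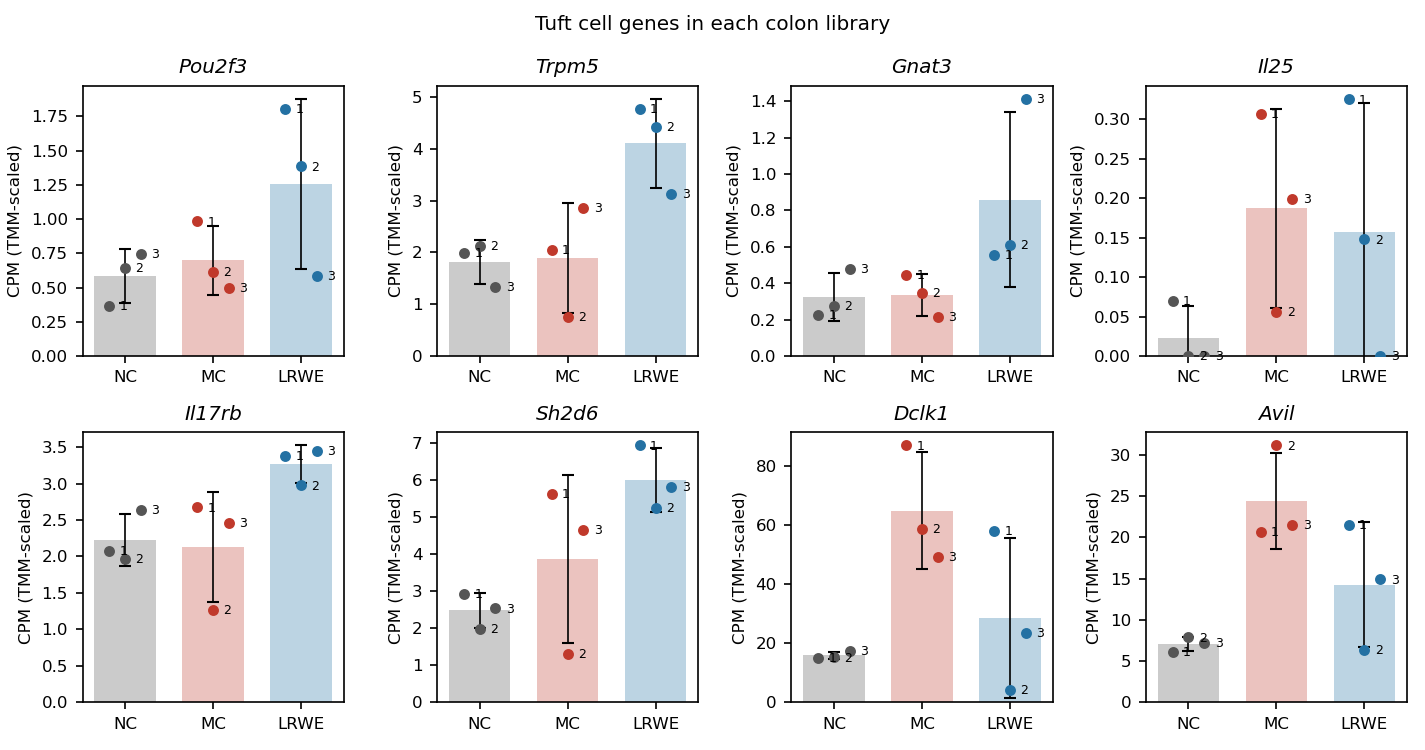
TMM-scaled CPM (vertical axes, linear, each from 0) of the 8 tuft cell genes in the 9 colon libraries, by group; bars are means, error bars are SD over 3 mice (drawn down to 0 at most), points are mice numbered by replicate. Avil and Dclk1 are above every NC library in all 3 MC libraries, while Trpm5, Gnat3 and Il17rb are above every MC library in all 3 LRWE libraries; with libraries scaled to epithelial genes the fitted difference of Il17rb in LRWE against MC is -0.13, where the median of all tested genes is -0.89.

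Advillin RNA was low in all control mice. Avil (ENSMUSG00000025432, chromosome 10, 126836578 to 126856863, plus strand, in the coordinates of the deposited table, whose build is not named) had 6.13, 7.87 and 7.17 CPM in NC 1, NC 2 and NC 3. It had 20.6, 31.1 and 21.5 CPM in the MC libraries and 21.5, 6.37 and 14.9 CPM in LRWE 1, LRWE 2 and LRWE 3. Every MC library was above every NC library, whereas LRWE spanned both, with LRWE 1 at the MC level and LRWE 2 within the NC range. In MC against NC the adjusted p was 0.0337, with an interval (95%) of 0.89 to 2.69 on the log2 scale. The change kept its direction under all 20 alternative analyses, but the call was lost in 10 of them, with adjusted p from 0.000327 to 0.140 over the 20. These 10 were scaling to epithelial genes (0.117), no filter on low counts (0.0538), the replicate block (0.104), and leaving out NC 1 (0.140), NC 2 (0.131), NC 3 (0.115), MC 1 (0.0716), MC 2 (0.0783), MC 3 (0.0788) or LRWE 3 (0.0594).

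Avil shares 9423 bases with Tsfm, which lies on the opposite strand and encodes a mitochondrial translation factor, and the sources used here do not say whether counting used strand. Tsfm itself differed by 0.36 ± 0.25 in MC against NC (adjusted p 0.417, edgeR) and by 0.65 ± 0.25 in LRWE against MC (adjusted p 0.179). In LRWE against NC it rose by 1.01 ± 0.25 (adjusted p 0.0373), beside 1.02 for Avil, and its part in the value of Avil was not tested. In whole colon, more cells of a type and more RNA per cell cannot be told apart, and this holds for every gene here.

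Dclk1 (ENSMUSG00000027797, chromosome 3, 55149785 to 55446489, plus strand) ranged widely between mice under the extract. It had 15.0, 15.2 and 17.4 CPM in NC, 86.9, 58.5 and 49.2 CPM in MC, and 57.9, 4.36 and 23.6 CPM in LRWE. All MC libraries were above all NC libraries, LRWE 1 lay within the MC range, and LRWE 2 lay below every other library. The fitted change in MC against NC had an adjusted p of 0.119 and an interval of 0.44 to 3.62 on the log2 scale. Dclk1 was called in 4 of 20 alternatives, namely DESeq2 (adjusted p 0.0156), voom with quality weights (0.00508), a fit of MC and NC alone (0.00288) and a fit without LRWE 2 (0.00855). The genes it overlaps are predicted loci with at most 42 counts in a library.

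The taste-like signalling genes had other profiles. Trpm5 (ENSMUSG00000009246, chromosome 7, 142622890 to 142640951, minus strand) had 1.98, 2.12 and 1.33 CPM in NC, 2.04, 0.752 and 2.86 CPM in MC, and 4.77, 4.41 and 3.14 CPM in LRWE. Its 3 highest libraries were the LRWE ones, and its lowest was MC 2. The fold change was 0.05 ± 0.49 in MC against NC (adjusted p 0.961, edgeR), with an interval of -1.06 to 1.16.

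Gnat3 (ENSMUSG00000028777, chromosome 5, 18167547 to 18224832, plus strand), which encodes gustducin, was scarce. It had 0.226, 0.277 and 0.476 CPM in NC, 0.445, 0.348 and 0.216 CPM in MC, and 0.553, 0.610 and 1.41 CPM in LRWE, from 13 to 87 counts per library. NC and MC covered nearly the same range, and all LRWE libraries were higher, LRWE 3 the most. At the lowest count of 13 the exact Poisson interval (95%) was 6.92 to 22.2 counts, which covers counting error only.

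Pou2f3 (ENSMUSG00000032015, chromosome 9, 43035234 to 43121666, minus strand), the factor on which tuft cells depend, had 0.366, 0.646 and 0.746 CPM in NC, 0.983, 0.612 and 0.498 CPM in MC, and 1.81, 1.39 and 0.585 CPM in LRWE. LRWE 1 and LRWE 2 were above all other libraries, and LRWE 3 lay within the range of both other groups. In MC against NC the fold change was 0.25 ± 0.61 (adjusted p 0.845, edgeR), on 21 to 111 counts per library over the 9.

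The cytokine and its receptor differed in level by far. Il25 (ENSMUSG00000040770, chromosome 14, 55170152 to 55173294, plus strand) had 4, 0 and 0 counts in NC, 20, 4 and 12 counts in MC, and 20, 8 and 0 counts in LRWE. All 3 groups held a library with 4 counts or fewer, so they overlapped. At a floor of 3 counts, the libraries at 0 allowed up to 0.0461 CPM in NC 2, 0.0476 CPM in NC 3 and 0.0487 CPM in LRWE 3. The fitted change of 2.94 ± 1.87 in MC against NC (adjusted p 0.380, edgeR) had an interval of -1.29 to 7.17, and no direction was detectable at this depth.

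Il17rb (ENSMUSG00000015966, chromosome 14, 29718092 to 29730853, minus strand), the receptor subunit that binds IL-25, had 2.07, 1.97 and 2.63 CPM in NC, 2.67, 1.27 and 2.46 CPM in MC, and 3.38, 2.97 and 3.44 CPM in LRWE. MC 2 was the lowest library, and the LRWE libraries were the 3 highest. The change in MC against NC was -0.06 ± 0.37 (adjusted p 0.941, edgeR), and its sign was positive in 7 of 20 alternatives. Il17rb shares 10220 bases with Actr8 on the opposite strand, and Trpm5 shares 1845 bases with Tssc4. These partners had at least 1167 and 797 counts per library, more than either tuft cell gene, and neither was called in any comparison.

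Sh2d6 (ENSMUSG00000052631, chromosome 6, 72490624 to 72498690, minus strand), which encodes a protein with an SH2 domain, had 2.94, 1.98 and 2.54 CPM in NC, 5.64, 1.31 and 4.65 CPM in MC, and 6.95, 5.26 and 5.82 CPM in LRWE. MC 1 and MC 3 were above all NC libraries, while MC 2 was the lowest library of the 9. In MC against NC the fold change was 0.63 ± 0.49 (adjusted p 0.475, edgeR), and it was 1.06 with an adjusted p of 0.105 without MC 2.

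The LRWE group was compared with MC, whose mice also served in the comparison with NC, to ask what the extract did in colitis. None of the 8 genes was called by edgeR, where 0% of all tested genes were called, although 5139 of the 21767 (23.6%) had an unadjusted p under 0.05. Among the tuft cell genes only Trpm5 had an unadjusted p under 0.05 (0.0492). Other tools called more of the table, 2178 genes with DESeq2 and 2901 with voom and quality weights, and among the 8 these were none and 1 gene. That gene was Dclk1, at -1.46 with an adjusted p of 0.0422.

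The LRWE and MC libraries did not overlap, with LRWE higher, for 3 of the 8 genes, against 14.3% of all tested genes. Trpm5 differed by 1.12 ± 0.50 (adjusted p 0.210, edgeR), with an interval of 0.00 to 2.24. Gnat3 differed by 1.35 ± 0.70 (adjusted p 0.271) and Il17rb by 0.62 ± 0.37 (adjusted p 0.332). Without MC 2, the lowest library for Trpm5 and Il17rb, the difference was 0.74 for Trpm5 (adjusted p 0.438), 0.35 for Il17rb (adjusted p 0.674) and 1.37 for Gnat3 (adjusted p 0.483). With libraries scaled to epithelial genes it was 0.45 for Trpm5, 0.47 for Gnat3 and -0.13 for Il17rb. This scaling moved the median of all tested genes to -0.89. It shifts all genes by about the same amount, so a place above that median is not a separate result.

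The 2 genes that were high in MC had lower means in LRWE. Avil differed by -0.77 ± 0.39 (adjusted p 0.256, edgeR), with an interval of -1.65 to 0.10, and Dclk1 by -1.18 ± 0.69 (adjusted p 0.316), with an interval of -2.73 to 0.37. Both values were smaller without LRWE 2, at -0.42 for Avil (adjusted p 0.431) and -0.67 for Dclk1 (adjusted p 0.397). LRWE 1 had as much of each as some MC libraries, so the groups overlapped.

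For the other 3 genes the groups overlapped as well. Sh2d6 differed by 0.64 ± 0.48 (adjusted p 0.442, edgeR), Pou2f3 by 0.85 ± 0.61 (adjusted p 0.413) and Il25 by -0.24 ± 1.69 (adjusted p 0.947). With libraries scaled to epithelial genes Sh2d6 was at -0.033 and Pou2f3 at -0.00068, beside the median of -0.89 given above. With the TMM scaling, the median over the 8 genes was 0.63, and over all tested genes it was -0.03.

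**Figure D2:**
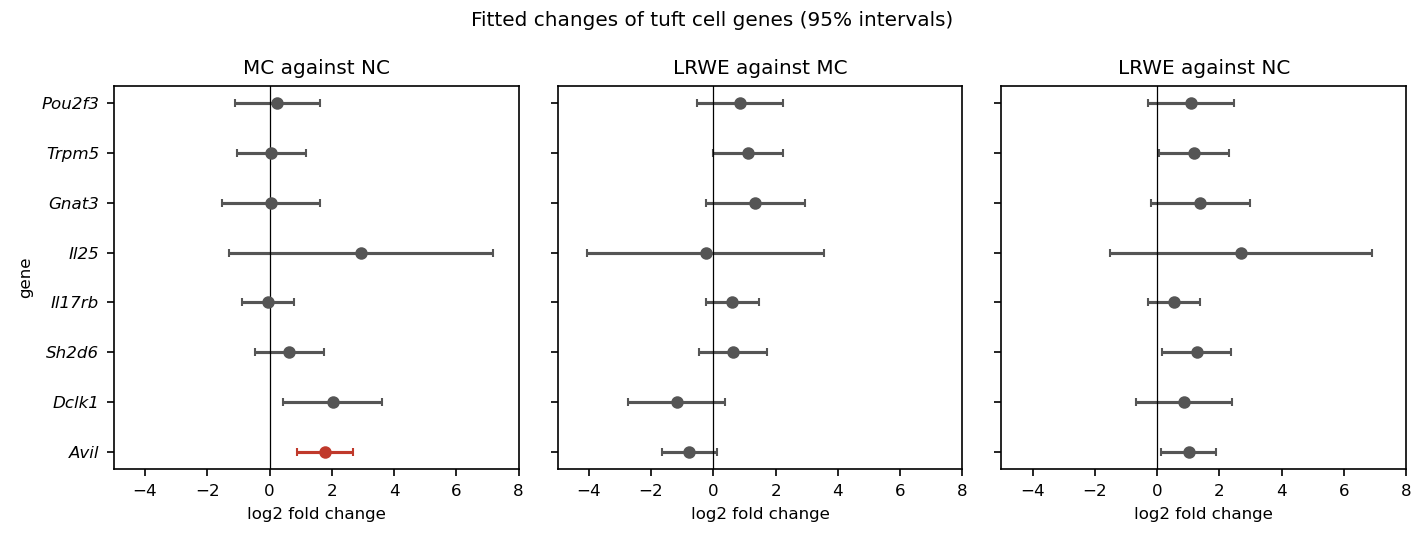
Fitted log2 fold changes (horizontal axes) of the 8 tuft cell genes in the 3 comparisons, with 95% intervals from edgeR over 3 mice per group; red marks an adjusted p under 0.05. Avil in MC against NC is the only red point, and the intervals of Il25 are the widest in each panel.

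The LRWE group was also compared with NC. The comparison shares the NC mice with MC against NC and the LRWE mice with LRWE against MC, so it is not independent of either. None of the 8 genes was called by edgeR, where 10% of all tested genes were called, 6.04% higher and 3.97% lower. At an unadjusted p under 0.05 there were 3 (Avil, Sh2d6 and Trpm5), against 26.9% of all tested genes. DESeq2 called 0 of the 8, and voom with quality weights called 3, Avil (adjusted p 0.0113), Gnat3 (0.0220) and Sh2d6 (0.0221).

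All LRWE libraries were above all NC libraries for Sh2d6, Trpm5, Gnat3 and Il17rb, 4 of the 8 genes, against 16.6% of all tested genes. The fold changes were 1.27 ± 0.49 for Sh2d6 (adjusted p 0.136, edgeR), 1.18 ± 0.50 for Trpm5 (0.166), 1.39 ± 0.70 for Gnat3 (0.244) and 0.55 ± 0.37 for Il17rb (0.383). With libraries scaled to epithelial genes the values were -0.09 for Il17rb and 0.65, 0.57 and 0.72 for Sh2d6, Trpm5 and Gnat3, where the median of all tested genes was -0.68. Sh2d6 was called without MC 2 (adjusted p 0.0273) and in a fit of LRWE and NC alone (0.0441).

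The remaining genes overlapped between LRWE and NC. Avil differed by 1.02 ± 0.39 (adjusted p 0.135, edgeR), and by 1.37 with an adjusted p of 0.0224 without LRWE 2. Dclk1 differed by 0.85 ± 0.68 (adjusted p 0.477), or by 1.36 without LRWE 2 and -0.18 without LRWE 1, so that each of these libraries decided its value. Pou2f3 differed by 1.10 ± 0.61 (adjusted p 0.291) and Il25 by 2.69 ± 1.86 (adjusted p 0.401). The median was 1.14 over the 8 genes and -0.05 over all tested genes.

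The 8 genes did not vary as one set from mouse to mouse. All 28 pairs were compared over the 9 libraries by Pearson's r and Spearman's rho of log2 CPM, with two-sided exact permutation tests adjusted over the pairs. The tests permuted all 9 libraries without regard to group, so differences between groups can add to r and lower its p. Values within groups are given without a test. A pair of Dclk1 and Avil varied together, at r = 0.88 (p = 0.00223, adjusted 0.0230) and rho = 0.87 (p = 0.00451, adjusted 0.0631). The value was 0.96 without the 2 libraries farthest from the median, 0.91 without LRWE 2, and 0.88 after each group was centred on its own mean.

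The other set was Trpm5, Sh2d6 and Il17rb. Il17rb and Sh2d6 had r = 0.91 (exact permutation p = 0.000854, adjusted 0.0230) and rho = 0.92 (p = 0.00131, adjusted 0.0367), 0.73 without the 2 farthest libraries and 0.93 within groups. Trpm5 and Sh2d6 had r = 0.86 (exact permutation p = 0.00247, adjusted 0.0230) and rho = 0.78 (p = 0.0172, adjusted 0.121), 0.64 without the 2 farthest libraries and 0.80 within groups. Trpm5 and Il17rb had r = 0.83 (exact permutation p = 0.00674, adjusted 0.0472) and rho = 0.73 (p = 0.0311, adjusted 0.174), but r fell to 0.47 without the 2 farthest libraries, MC 2 and LRWE 1. Between the sets, Dclk1 had r = -0.27 with Trpm5 and r = 0.06 with Sh2d6 (exact permutation p = 0.485 and 0.877). No pair with Pou2f3, Il25 or Gnat3 had an adjusted p under 0.05 for r or rho.

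**Figure D3:**
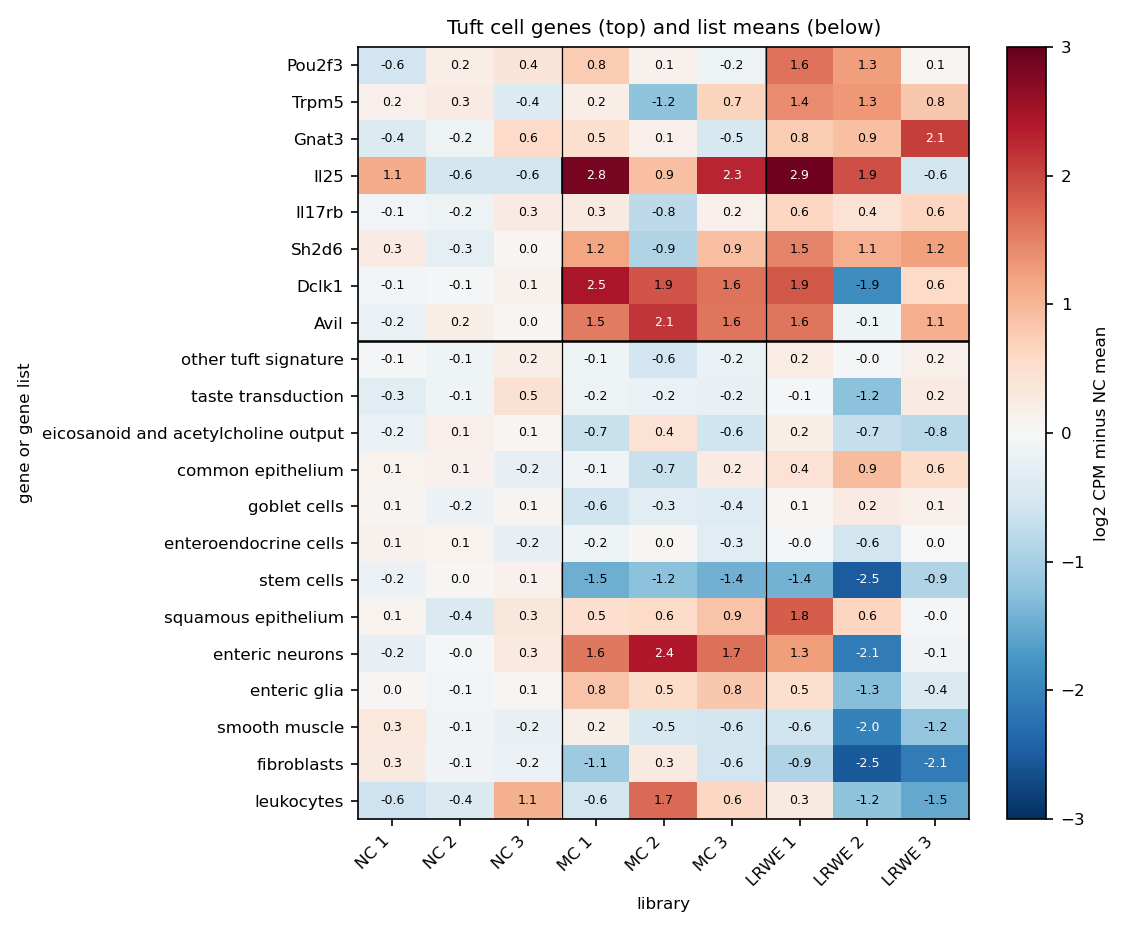
Log2 CPM of each tuft cell gene (top 8 rows) and the mean over each of 13 lists of other genes (lower rows) in the 9 libraries, minus the mean of the 3 NC libraries; colours run from -3 to 3. Dclk1 is high in the MC libraries and lowest in LRWE 2, as is the enteric neuron row, and Trpm5 is lowest in MC 2, as is the common epithelium row.

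Both sets varied with genes of other cell classes. The sum over 12 enteric neuron genes was 543 to 714 CPM in NC, 1622 to 3133 CPM in MC, and 1303, 166 and 505 CPM in LRWE 1, LRWE 2 and LRWE 3, with no gene of the list at 0. Of these 12 genes none was called by edgeR in MC against NC, LRWE against MC or LRWE against NC. Over all tested genes 6.37%, 0% and 10% were called. In MC against NC 11 did not overlap with MC higher (median 1.97), against 19.5% of all tested genes. In LRWE against MC 12 did not overlap with LRWE lower (median -1.53), against 14.1% of all tested genes. Examples are Prph, which encodes a neuronal intermediate filament, at 1.83 ± 0.56 in MC against NC (adjusted p 0.0874), and Uchl1, a neuronal ubiquitin hydrolase, at 1.65 ± 0.50 (adjusted p 0.0833).

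The mean log2 CPM of the neuron list had r = 0.95 and rho = 0.87 with Dclk1 and r = 0.86 and rho = 0.87 with Avil over the 9 libraries. Within groups r was 0.92 and 0.98, and without the 2 farthest libraries, MC 2 and LRWE 2, it was 0.93 and 0.84. Other lists were also alike. The enteric glia list had r = 0.92 and rho = 0.83 with Dclk1 and r = 0.70 and rho = 0.65 with Avil. The list of mast cell and basophil genes had r = 0.66 with Dclk1 and 0.73 with Avil. These are descriptions with no test, because the neuron list was picked for them after the values were seen. For Trpm5, Sh2d6 and Il17rb, r with the neuron list was -0.49, -0.22 and -0.41. The part of neuronal or glial RNA in the rise of Avil was not tested.

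The sum over 16 genes common to the epithelium was 12675 to 16435 CPM in NC, 11149, 8373 and 14870 CPM in MC 1, MC 2 and MC 3, and 15761 to 23516 CPM in LRWE, with no gene at 0. In LRWE against MC, 12 of the 16 did not overlap with LRWE higher (median 0.72), against 14.3% of all tested genes. In LRWE against NC, 4 rose and 1 fell, against 6.04% and 3.97% of all tested genes. Among those that rose were Cdx2, an intestinal transcription factor, at 3.74 ± 0.55 (adjusted p 0.00664, edgeR), and Krt20, a keratin of mature enterocytes, at 1.43 ± 0.27 (adjusted p 0.0148). The gene that fell was Tspan1, at -1.39 ± 0.24 (adjusted p 0.0109). LRWE was higher without overlap for 10 of the 16, against 16.6% of all tested genes. Epcam, Krt18, Cldn3 and Lgals4 overlapped with NC, at 0.19, 0.14, -0.12 and -0.07. As a description with the list picked in the same way, Trpm5 had r = 0.93 and rho = 0.93 with the epithelial mean, 0.87 without MC 2 and LRWE 2, and 0.85 within groups. Il17rb had r = 0.75 and Sh2d6 r = 0.73, which were 0.50 and 0.54 without those libraries. With the mean of the further tuft cell signature genes, r was 0.87 for Il17rb, above its value with the epithelial mean, 0.62 for Sh2d6 and 0.61 for Trpm5. With the same mean it was 0.52 for Gnat3, 0.36 for Pou2f3, -0.11 for Il25, -0.26 for Dclk1 and -0.41 for Avil. With the fibroblast list r was -0.73 for Il17rb, -0.73 for Sh2d6, -0.70 for Trpm5 and -0.75 for Gnat3, and -0.52 to 0.34 for the others. The colon position list mixes genes of both ends of the colon. With it r was -0.74 for Sh2d6, -0.74 for Gnat3, -0.66 for Trpm5 and -0.65 for Il17rb, and -0.59 to 0.0030 for the others. Dclk1 and Avil had r = -0.55 and -0.38 with the epithelial mean. The part of epithelial content in the values of Trpm5, Sh2d6 and Il17rb was not tested.

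**Figure D4:**
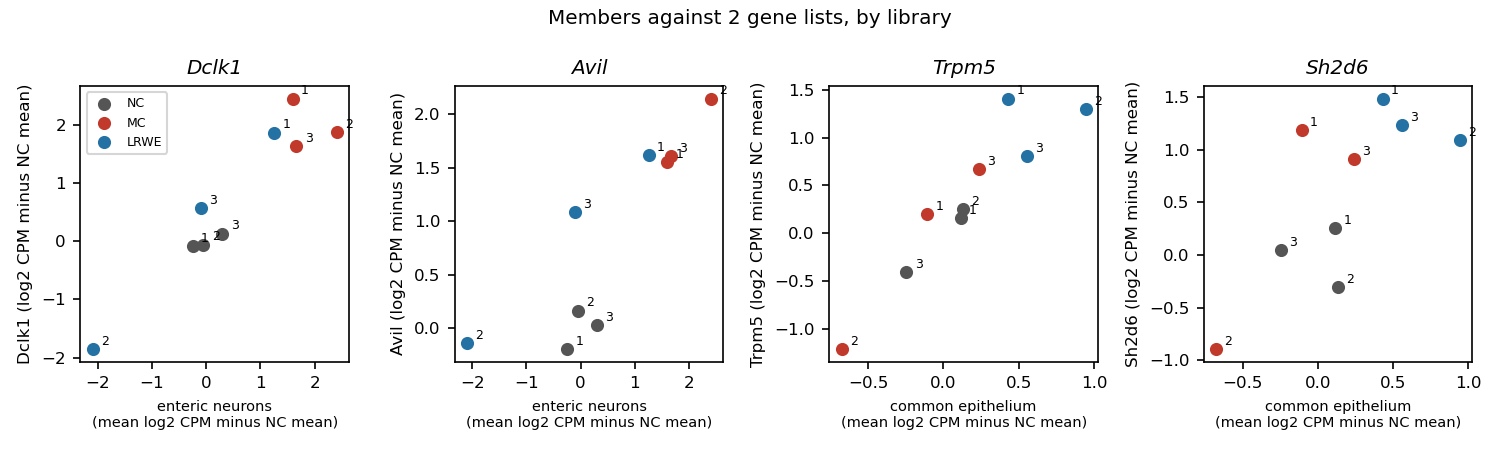
Log2 CPM of Dclk1 and Avil against the mean of 12 enteric neuron genes (2 left panels), and of Trpm5 and Sh2d6 against the mean of 16 common epithelial genes (2 right panels), all minus the NC mean; each point is 1 library, coloured by group and numbered by replicate. LRWE 2 has the lowest neuron mean and the lowest Dclk1, and MC 2 has the lowest epithelial mean and the lowest Trpm5 and Sh2d6.

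Other genes of the tuft cell signalling chain were followed in the same fits. In the taste transduction list 13 of 15 genes matched and 11 were tested. None was called in MC against NC or in LRWE against MC, where 6.37% and 0% of all tested genes were called. In LRWE against NC 1 rose, where 6.04% of all tested genes were called higher. It was Ffar2, a receptor for short-chain fatty acids. Ffar2 had 1.25 to 1.56 CPM in NC and 4.80 to 6.10 CPM in LRWE (1.92 ± 0.44, adjusted p 0.0291, edgeR). The most abundant members, the channel gene Trpm4 and the inositol trisphosphate receptor gene Itpr3, differed in LRWE against MC by 0.998 ± 0.39 (adjusted p 0.184) and 0.60 ± 0.19 (adjusted p 0.164). Both were lowest in MC 2, at 56.2 and 65.03 CPM. In LRWE against NC 8 of the 11 had positive fold changes. Plcb2, Plcg2 and Tas1r1, singled out after their values were seen, went the other way. Plcb2 had 3.03 to 7.95 CPM in NC and 1.27 to 2.49 CPM in LRWE. Plcg2 had 5.26 to 14.6 CPM in NC and 0 to 4.13 CPM in LRWE. Tas1r1 was scarce, at 0.348 to 0.667 CPM in NC and 0 to 0.13 CPM in LRWE. The median of the list was -0.17, -0.09 and 0.35 in MC against NC, LRWE against MC and LRWE against NC.

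**Figure D5:**
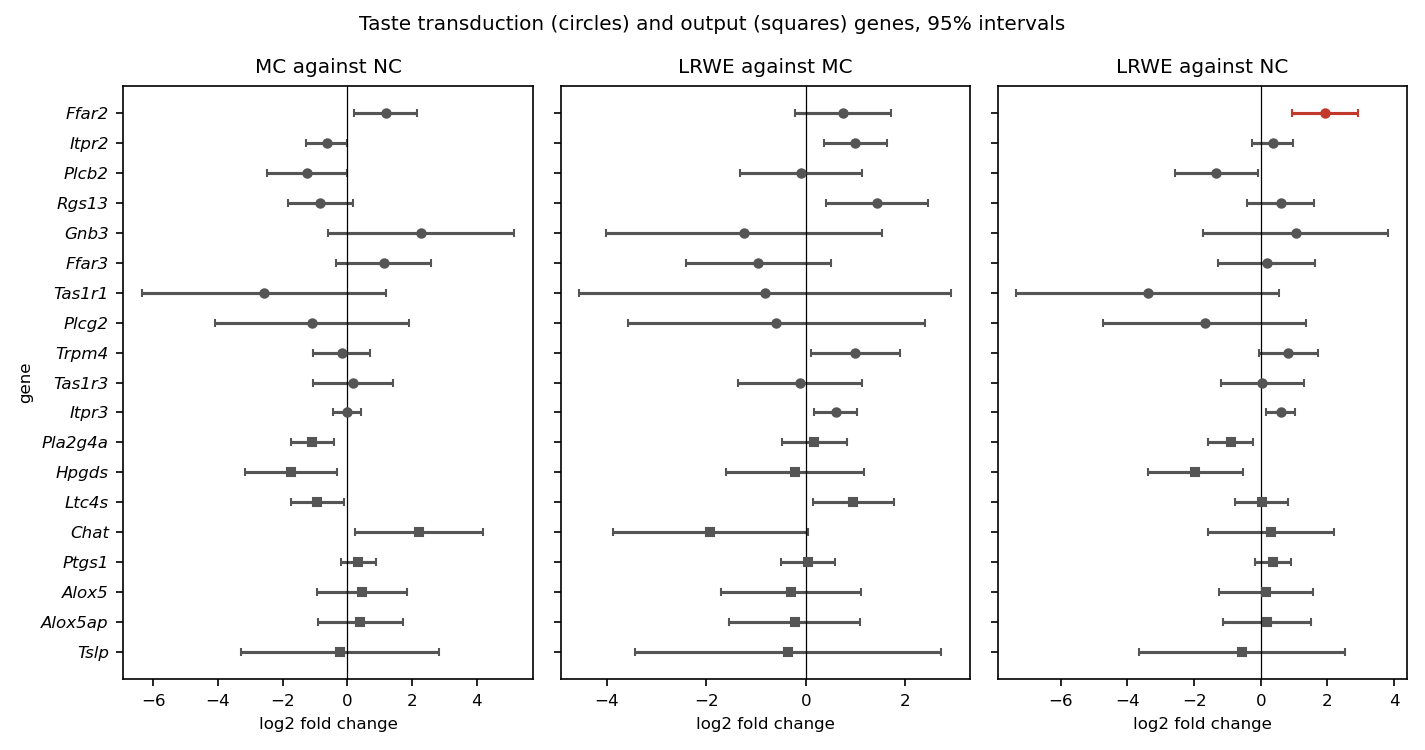
Fitted log2 fold changes (horizontal axes, with a separate range in each panel) of 11 taste transduction genes (circles) and 8 genes of eicosanoid and acetylcholine output (squares) in the 3 comparisons, with 95% intervals from edgeR over 3 mice per group; red marks an adjusted p under 0.05. Ffar2 in LRWE against NC is the only red point.

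Tuft cells also release leukotrienes, prostaglandins and acetylcholine. None of 8 genes for these outputs was called in MC against NC, LRWE against MC or LRWE against NC. Over all tested genes 6.37%, 0% and 10% were called in these comparisons. Ptgs1, a cyclooxygenase gene, differed by 0.34 ± 0.24 in MC against NC (adjusted p 0.432, edgeR). In that comparison 4 of the 8 had positive fold changes, with a median of 0.06. Hpgds, Pla2g4a and Ltc4s, singled out after their values were seen, went the other way. Hpgds had 11.4 to 17.8 CPM in NC, 0.814 to 7.26 CPM in MC and 3.07 to 4.25 CPM in LRWE. Pla2g4a had 23.9 to 30.5, 7.96 to 17.7 and 11.5 to 17.2 CPM in the same order. Ltc4s had 2.25 to 2.99, 1.16 to 1.49 and 2.18 to 3.56 CPM. Chat, which makes acetylcholine and is also on the neuron list, was singled out after its values were seen. It had 1.25, 2.28 and 3.87 CPM in NC, 8.43, 16.5 and 9.68 CPM in MC, and 6.26, 0.296 and 2.58 CPM in LRWE, a change of 2.22 ± 0.87 in MC against NC (adjusted p 0.161). As with Dclk1, every MC library was above every NC library and LRWE 2 was the lowest of all.

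The next list held 8 tested transcription factors linked to tuft cells or to secretory and stem cells from which they arise. Of these 2 fell in MC against NC, where 3.53% of all tested genes were called lower. Sox9, a factor of the crypt base, fell by 1.98 ± 0.30 (adjusted p 0.0090, edgeR), from 22.6 to 24.6 CPM in NC to 4.75 to 6.89 CPM in MC. Ascl2, a stem cell factor, fell by 5.36 ± 1.31 (adjusted p 0.0457). No factor was called in LRWE against MC or LRWE against NC, where 0% and 10% of all tested genes were called. Sox9 stood at 9.24 to 19.1 CPM in LRWE. The 2 factors that fell are known as crypt and stem cell regulators, whereas Pou2f3 itself was not called.

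Of 24 further genes of published tuft cell signatures, 2 rose and 1 fell in MC against NC, and 3 rose and 1 fell in LRWE against NC. Over all tested genes 6.37% and 10% were called in these comparisons. Camk2b, a calmodulin-dependent kinase subunit also known from neurons, rose by 1.81 ± 0.22 in MC (adjusted p 0.0048, edgeR) and by 1.31 ± 0.22 in LRWE (adjusted p 0.0104). Nrgn, which encodes the calmodulin-binding protein neurogranin of neurons, rose by 2.20 ± 0.46 (adjusted p 0.0266) and 1.899 ± 0.45 (adjusted p 0.0334). Irag2, also expressed in lymphocytes, went from 47.3 to 61.8 CPM in NC to 4.16 to 19.9 CPM in MC (-2.35 ± 0.49, adjusted p 0.0272) and 3.64 to 6.10 CPM in LRWE (-3.51 ± 0.52, adjusted p 0.00657). Cwh43 rose in LRWE against NC by 3.03 ± 0.55 (adjusted p 0.0135). The medians of the list were -0.26, 0.13 and -0.01 in MC against NC, LRWE against MC and LRWE against NC.

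The circuit downstream of IL-25 was read from 18 tested genes of type 2 ligands, receptors and targets. In MC against NC 2 rose, the shared receptor gene Il4ra (1.40 ± 0.25, adjusted p 0.0161, edgeR) and Retnlb, which encodes a goblet cell product induced by type 2 cytokines (5.14 ± 1.15, adjusted p 0.0340), where 2.84% of all tested genes were called higher. Clca1, another goblet cell product induced by type 2 cytokines, was singled out after its values were seen, since it had 961, 965 and 1227 CPM in NC against 227, 664 and 270 CPM in MC (-1.44 ± 0.38, adjusted p 0.0564). Retnlb had 0.331, 0.215 and 1.51 CPM in NC, 4.78, 23.3 and 44.5 CPM in MC, and 85.8, 19.2 and 15.0 CPM in LRWE. It also rose in LRWE against NC by 5.86 ± 1.18 (adjusted p 0.0193), and nothing was called in LRWE against MC. Among 5 tested genes of the IL-17 ligand and receptor family other than Il25 and Il17rb, Il17d rose by 1.14 ± 0.23 in MC against NC (adjusted p 0.0249). The most abundant, the receptor subunit gene Il17rc, was not called in any comparison.

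Mast cells and squamous epithelium were followed as other cells a colon sample can hold. Of 12 squamous epithelium genes matched, 7 were tested, and the sum of the 12 was 5.7 to 14.4 CPM over the 9 libraries. None was called in MC against NC, LRWE against MC or LRWE against NC. Over all tested genes 6.37%, 0% and 10% were called. As a description with no test, the squamous mean had r = 0.77 with Il25 and 0.65 with Pou2f3. For the other tuft cell genes r was 0.04 to 0.50. Mast cell genes summed to 26.8 to 32.1 CPM in NC, 69.6 to 89.0 CPM in MC and 25.2 to 67.3 CPM in LRWE, and nearly all of this was Kit, which pacemaker cells of the gut wall also express (1.45 ± 0.30 in MC against NC, adjusted p 0.0251, edgeR). The mast cell genes Cpa3 and Ms4a2 were at 0 in 7 and 9 of the 9 libraries. The mast cell protease gene Mcpt1 had 0.662, 0.646 and 0.968 CPM in NC, 0.261, 4.08 and 3.17 CPM in MC, and 3.69, 0.702 and 1.66 CPM in LRWE. Mcpt2, another protease gene, was likewise highest in MC 2, MC 3 and LRWE 1, at 1.43, 1.36 and 1.87 CPM, and neither was called. The part of these cells in the values of the tuft cell genes was not tested.

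To find genes with a pattern most like the 8 as a set, log2 CPM of each was standardized over the 9 libraries and averaged. Since the 8 did not vary together, this average need not follow any single gene. Each gene weighs the same in it, also Il25 with its low counts. The NC libraries had averages of -0.68 to -0.46, MC 1, MC 2 and MC 3 had 0.58, -0.56 and 0.14, and the LRWE libraries had 1.07, 0.22 and 0.37. Among 15020 genes with a mean of at least 0.5 CPM, the 8 nearest by Pearson's r, from 0.93 to 0.90, were Rgs2, Phex, Hhatl, Slc4a7, Hoxd8, Cdk18, Rac3 and Muc3a. Spearman's rho kept 2 of these among its top 8, and log2(FPKM + 0.1) kept 4.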

How the data were processed

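RNA was measured in whole colon of 9 mice. Per the file headers, the deposited values were FPKM, which the authors scaled by length and depth, and whole-number counts, handled here like estimated counts (expected counts). Tools listed in the submitters' processing notes are StringTie 1.3.4d, HISAT2 2.0.4, cutadapt 1.9 and edgeR, and the strand setting is not among them. These notes name a human build, hg38, which cannot hold mouse genes, and positions in the table differed from GRCm38, so no build is named for them.

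Counts were filtered with filterByExpr (minimum count 10) and scaled by TMM. They were fitted with 1 mean per group over all 9 libraries in edgeR 4.0.16 (R 4.3.3, limma 3.58.1). The quasi-likelihood test set each difference between groups against the spread between mice. That spread was estimated from all 9 libraries, also those of the group not compared. SE is the absolute log2 fold change over the square root of F. Log2 CPM used a prior count of 2. Alternatives were DESeq2 1.42.0, other scalings and filters, limma-trend on FPKM with pseudocounts of 1 and 0.1, voom with quality weights, the 2 compared groups alone, a replicate block and each library left out. The scripts were tested on simulated data. Intervals and floors on counts cover counting error only, since PCR copies of 1 molecule cannot be told apart.

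The 8 genes, the 19 lists (208 of 217 genes matched) and the tests were chosen with earlier results of these data known. Named genes are the 8, up to 4 called genes of each list per comparison or its 2 most abundant where fewer than 2 were called, and the 8 nearest in pattern. Others named are Chat, Hpgds, Pla2g4a, Ltc4s, Plcb2, Plcg2, Tas1r1, Clca1, Cpa3, Ms4a2, Mcpt1 and Mcpt2. Genes of the colon position, epithelial and mast cell lists that describe the libraries are named as well. The comparisons share libraries, and no library had a technical batch label.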

Additional observations from a re-analysis of the deposited data

How the results depend on the processing

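For the 8 genes in 3 comparisons, 475 alternative values were computed; 431 kept direction and side of the threshold, 23 turned sign, 11 became called and 10 lost a call. The 10 lost calls are those of Avil in MC against NC given above. The number of tuft cell genes called in MC against NC was 1, and it was 2 with DESeq2, voom weights and the 2 groups alone, 0 with epithelial scaling, no filter and the replicate block, and 0 to 2 leaving out a library. In LRWE against MC it was 0, and 1 with voom weights. In LRWE against NC it was 0, with 3 by voom weights, 1 with the 2 groups alone, and 0 to 1 leaving out a library (1 without MC 2 or LRWE 2).

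Genes called over the whole table numbered 1386 in MC against NC (618 higher, 768 lower). They numbered 3755 with DESeq2, 353 with epithelial scaling (223 higher, 130 lower), 2374 by limma-trend on log2(FPKM + 1), 5205 with voom weights, 3781 with the 2 groups alone, and 281 (without NC 1) to 3318 (without LRWE 2) leaving out a library. Library totals gave 783 higher and 539 lower. In LRWE against MC, 0 became 2178 with DESeq2, 2901 with voom weights, 1 by limma-trend on log2(FPKM + 0.1), and 0 to 2436 leaving out a library (2436 without LRWE 1). In LRWE against NC, 2179 (1314 higher, 865 lower) became 4414 with DESeq2, 1291 with epithelial scaling (247 higher, 1044 lower), 6142 with voom weights, and 459 (without NC 2) to 2725 (without MC 2) leaving out a library. The cause of these shifts was not tested.

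The replicate numbers were shared between groups, and the mice were treated as unpaired. Same-numbered libraries deviated from their group means together at r of only -0.16 to 0.03. With 3 libraries per group this shows no sign of pairing but cannot exclude it. With the replicate block the whole table gave 306 calls in MC against NC and 600 in LRWE against NC, and Trpm5 in MC against NC stood at -0.00055.

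In MC against NC, Il17rb was 0.055 with library totals, 0.033 with epithelial scaling, 0.015 and 0.021 by limma-trend with pseudocounts 1 and 0.1, and 0.12 with voom weights. Leaving out a library, Il17rb ran from -0.26 to 0.21 (positive without NC 3 or MC 2), Gnat3 from -0.21 to 0.42 (negative without NC 1, NC 2 or MC 1), Trpm5 from -0.38 to 0.44 (negative without NC 3, MC 1 or MC 3) and Pou2f3 from -0.078 to 0.46 (negative without MC 1). In LRWE against MC, epithelial scaling gave -0.00068 for Pou2f3, -0.13 for Il17rb and -0.033 for Sh2d6, and Il25 ran from -1.34 to 0.33 leaving out a library (positive without MC 1 or LRWE 3). In LRWE against NC, Il17rb was -0.095 with epithelial scaling, Il25 was -0.020 with voom weights, and Dclk1 ran from -0.18 (without LRWE 1) to 1.36. The median over all tested genes was near 0 with TMM. With epithelial scaling it was 0.21, -0.89 and -0.68 in MC against NC, LRWE against MC and LRWE against NC. With library totals it was 0.14, -0.24 and -0.10 in the same order. Each scaling shifts all genes by about the same amount, so the place of a gene relative to that median is not a separate result. The genes nearest in pattern numbered 8, of which Spearman's rho kept 2 and log2(FPKM + 0.1) kept 4. Low counts limit Il25, Gnat3 and Pou2f3 most.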

Other observations

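The genes nearest to single tuft cell genes were looked up after the patterns above were seen, by Pearson's r of log2 CPM over the 9 libraries and as a description only. Dclk1 was nearest to Adgrb2 (r = 0.99), which encodes an adhesion receptor of the brain, and Avil to Cdkl2 (r = 0.99). Trpm5 was nearest to Espn (r = 0.96), which encodes the actin-bundling protein espin and is on the list of further tuft cell genes, and to Cdhr2 (r = 0.96), a cadherin of the enterocyte brush border. Espn had 36.7 to 61.4 CPM in NC, 72.8, 21.6 and 93.5 CPM in MC, and 113, 151 and 120 CPM in LRWE, so that MC 2 was its lowest library and the LRWE libraries its 3 highest, as for Trpm5. Sh2d6 was nearest to Adamts18 (r = 0.97) and Il17rb to Dnph1 (r = 0.96). No gene reached r of 0.9 with Pou2f3, whose nearest was Unc119b (r = 0.86).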
